A study of Homo sapiens with 14 samples.

Results

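The genes described here are 34 aminoacyl-tRNA synthetases and partner proteins, taken from a list of names: 17 cytosolic enzymes, 12 mitochondrial enzymes, 2 genes whose enzyme works in both compartments (GARS1 and KARS1) and 3 scaffold proteins of the multisynthetase complex. A gene counted as measured where at least 1 probe set of the array was annotated with that gene and no other, which held for 26 of the 34 members among 11963 genes in all. Measured were 14 of the 17 cytosolic enzymes, 9 of the 12 mitochondrial enzymes, both shared enzymes and 1 of the 3 scaffold proteins (AIMP1). FARSB, PARS2, EARS2, AIMP2 and EEF1E1 were not analysed here because no probe set carried their name in the annotation used. MARS1, with 3 probe sets, and QARS1 and TARS2, with 1 each, were left out because their probe sets were annotated with a second gene as well.

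The cells were RS4;11, an established human B-lineage acute lymphoblastic leukemia line, kept for 48 h in medium with charcoal-dextran-treated serum, which is low in steroid hormones, before any treatment. Dexamethasone, a synthetic glucocorticoid, was then given at 10 nM. Of the 14 arrays, 4 held RNA of untreated cells, 5 of cells treated for 8 h and 5 of cells treated for 24 h. All 3 groups shared the hormone starvation, and no array held cells kept for 8 or 24 h without dexamethasone, so time in culture and treatment cannot be told apart. The labels name no separate cultures, so the p-values below measure the spread between these samples, which may be technical, and the 2 comparisons with untreated cells share the same 4 untreated arrays.

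Each synthetase joins 1 kind of amino acid to its tRNA, the step that supplies the ribosome with charged tRNAs. The cytosol and the mitochondria mostly use different enzymes, both encoded in the nucleus, and the mitochondrial ones serve the ribosomes that make a few subunits of the respiratory chain. Several cytosolic enzymes sit in a multisynthetase complex held together by AIMP1 and other scaffold proteins. Many genes of cytosolic synthetases are known targets of ATF4, a transcription factor made when amino acids are short, which binds a composite C/EBP-ATF response element (CARE) often found close to the start of transcription.

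The promoter windows that hold such an element are shown first, since the members with it can then be set beside those without. The motif searched was TGATGNAA on both strands, in windows of 300 bases, from 250 bases before to 50 bases after each start site, with sequence from RefSeq (build GRCh38.p14). It occurred in 1270 of 35116 windows (3.62%), and 328 of the 9563 genes tested that had a window held it (3.43%). Of the 23 measured members with a window, 7 held it: 5 of 11 cytosolic enzymes (AARS1, CARS1, IARS1, NARS1 and TARS1), the shared enzyme GARS1, and 1 of 9 mitochondrial enzymes (YARS2). LARS1, VARS1 and YARS1 had no window. The 30 bases around each match are given on the strand that reads TGATG, with the motif in capitals. They lie at chr16:70289675-70289704 (+) for AARS1, chr11:3057407-3057436 (+) for CARS1, chr9:92293692-92293721 (+) for IARS1, chr18:57621804-57621833 (-) for NARS1, chr5:33440956-33440985 (-) for TARS1, chr7:30594834-30594863 (-) for GARS1 and chr12:32756076-32756105 (-) for YARS2.
AARS1: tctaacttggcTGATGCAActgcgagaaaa
CARS1: ttcctagaatcTGATGCAAccgccgccccg
IARS1: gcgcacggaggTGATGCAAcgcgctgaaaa
NARS1: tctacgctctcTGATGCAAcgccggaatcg
TARS1: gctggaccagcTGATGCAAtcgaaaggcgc
GARS1: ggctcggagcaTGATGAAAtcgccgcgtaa
YARS2: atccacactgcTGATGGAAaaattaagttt
The 5 cytosolic sequences share the same 8 motif bases, TGATGCAA, whereas GARS1 and YARS2 each differ from them in the free position. In IARS1, CARS1, NARS1 and TARS1 the match began within 15 bases of the start site, at positions -13, -2, 15 and 3, while in GARS1 it began at -33, in AARS1 at -187 and in YARS2 at -197. The E-box CACGTG, searched in the same way, was in 7.26% of all windows, in 12.0% of the genes tested with a window and in 1 member (IARS1). The cyclic AMP response element TGACGTCA was in 1.85% of windows, in 3.59% of those genes and in none of the 23 members. A match describes the letters in the window and says nothing of binding in these cells.

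Transcripts of most cytosolic synthetases were lower by 8 h of dexamethasone, whereas most of those that fell among the mitochondrial synthetases were called only at 24 h. After 8 h, 12 of 14 cytosolic enzymes were lower than in untreated cells, against 1 of 9 mitochondrial enzymes. After 24 h the counts were 13 of 14 cytosolic and 5 of 9 mitochondrial enzymes. Among all genes, 11.0% were called lower at 8 h and 20.9% at 24 h. The median log2 fold change of the cytosolic enzymes was -0.61 at 8 h and -0.81 at 24 h, and that of the mitochondrial enzymes was -0.05 at 8 h and -0.48 at 24 h. The median over all 11963 genes was -0.02 at both times. The arrays had been normalised together, so a shift common to all genes could not be seen. These fold changes are differences of log2 expression values between group means, a gene being called where limma's adjusted p was below 0.05. In RNA from bulk cells, fewer cells of one kind and less RNA per cell cannot be told apart.

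Over all 26 measured members, 14 were called lower and 1 higher at 8 h against untreated, where 11.0% of all genes were called lower and 8.69% higher. At 24 h against untreated, 21 were lower and 1 higher, against 20.9% and 19.5% of all genes. At 24 h against 8 h, 13 were lower and 0 higher by limma (0 higher also at an unadjusted p below 0.05), against 13.7% and 14.6% of all genes. The values of the 2 groups did not overlap in 14 members at 8 h against untreated (18.2% of all genes), in 21 at 24 h against untreated (35.3%) and in 12 at 24 h against 8 h (22.4%). Of the 26 fitted changes, 24 were below 0 at 8 h and 24 at 24 h against untreated.

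**Figure D1:**
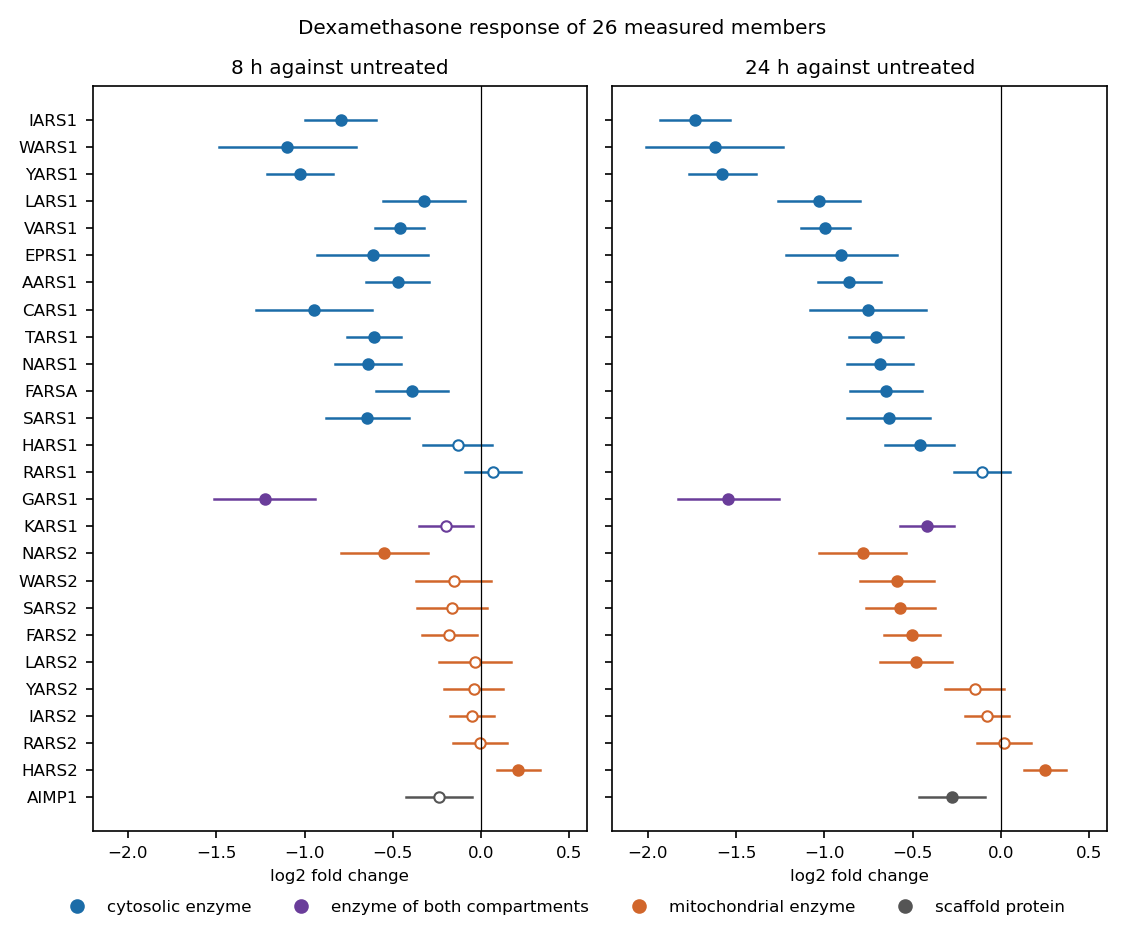
Log2 fold change of the 26 measured members at 8 h (left) and 24 h (right) against untreated cells, with 95% confidence intervals from limma. Filled circles passed the adjusted p of 0.05, open circles did not. IARS1, WARS1, YARS1 and GARS1 lie below -1.5 at 24 h, and HARS2 alone lies above 0 with a filled circle.

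The isoleucyl enzyme IARS1, a member of the multisynthetase complex, had the lowest fold change at 24 h of all members. Its values were 12.09, 12.09, 11.63 and 11.79 on the untreated arrays, 11.10, 11.05, 10.94, 11.33 and 11.10 after 8 h, and 10.15, 10.17, 10.18, 10.20 and 10.12 at 24 h. The 3 groups were fully separated, and the 24 h arrays lay within 0.1 of each other. The change was -0.80 (SE 0.09, adjusted p = 1.4e-05) at 8 h and -1.73 (SE 0.09, adjusted p = 3.9e-10) at 24 h, so that transcript levels fell by 42.4% at 8 h and fell by 69.9% at 24 h. The step between the 2 treated times was -0.94 (adjusted p = 8.6e-07), the largest among the members.

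The tyrosyl enzyme YARS1 had values of 11.53, 11.55, 11.17 and 11.26 in untreated cells, of 10.32, 10.28, 10.23, 10.57 and 10.37 after 8 h, and of 9.75, 9.83, 9.85, 9.88 and 9.68 at 24 h. Again no array of one time overlapped with another time. YARS1 fell by 1.03 (SE 0.09, adjusted p = 4.6e-07) at 8 h and by 1.58 (SE 0.09, adjusted p = 5.7e-10) at 24 h on the log2 scale.

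WARS1, the cytosolic tryptophanyl enzyme, whose transcript is known to be induced by interferon gamma, had untreated values of 10.09, 10.04, 9.06 and 9.22. It read 8.61, 8.49, 8.34, 8.81 and 8.29 after 8 h and 7.93, 8.07, 7.88, 8.10 and 7.94 at 24 h. The untreated arrays fell into 2 levels, the first 2 (labelled with the same day) higher by 0.93 than the other 2, and all 4 stood above every treated array. The change was -1.10 (SE 0.18, adjusted p = 0.00037) at 8 h and -1.62 (SE 0.18, adjusted p = 1.9e-06) at 24 h. At 8 h the arrays of day 1 alone gave -1.52 and those of days 2 to 4 gave -0.66.

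GARS1, the glycyl enzyme of both compartments, showed the largest change of all members at 8 h. Untreated cells had 11.54, 11.53, 10.71 and 11.05, cells at 8 h had 9.98, 9.84, 9.90, 10.17 and 10.02, and cells at 24 h had 9.67, 9.69, 9.64, 9.71 and 9.61. All treated arrays were below all untreated ones, and the 24 h arrays were all below those of 8 h. The change was -1.23 (SE 0.13, adjusted p = 5.8e-06) at 8 h and -1.54 (SE 0.13, adjusted p = 9.3e-08) at 24 h. The step of -0.32 between the times did not pass (adjusted p = 0.076), but did with a blocking term for run (adjusted p = 0.048). A run is a set of arrays, 1 of each group it holds, whose labels carry the same day and, on the day with 2 runs, the same letter. KARS1, the lysyl enzyme shared by both compartments and part of the complex, had 12.06, 12.05, 12.24 and 12.35 in untreated cells, 11.94, 11.86, 11.97, 11.99 and 12.11 after 8 h, and 11.69, 11.70, 11.75, 11.81 and 11.84 at 24 h. Its 24 h values were below all others while those of 8 h overlapped with untreated cells. KARS1 changed by -0.42 (SE 0.07, adjusted p = 0.00016) at 24 h. At 8 h the difference was -0.20 (adjusted p = 0.064), which passed with a blocking term for run (adjusted p = 0.0061).

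**Figure D2:**
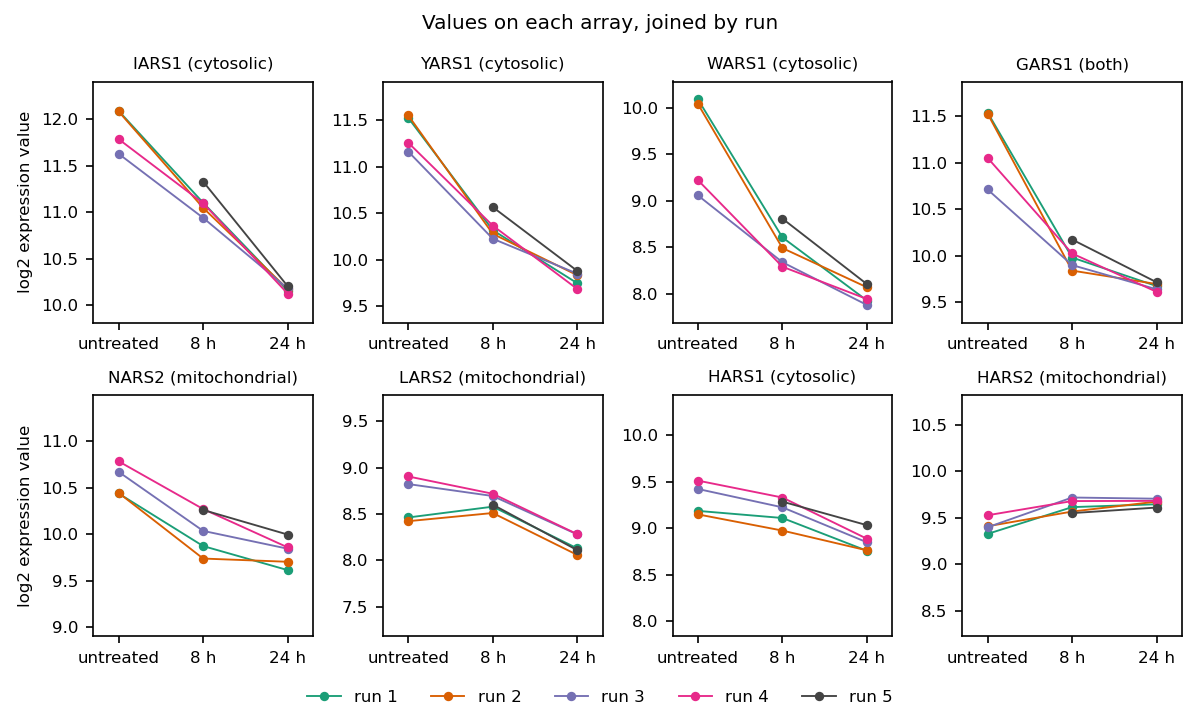
Log2 expression value of 8 members on each of the 14 arrays, by time (untreated, 8 h, 24 h), with arrays of the same run joined by a line. Each panel spans the same 2.6 log2 units. IARS1, YARS1, WARS1 and GARS1 go down at both steps in every run, NARS2 does so less steeply, LARS2 and HARS1 drop mainly at 24 h, and HARS2 lies higher in treated cells.

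The leucyl enzyme LARS1, another complex member and a known leucine sensor of the mTORC1 pathway, had its larger fitted step between 8 and 24 h. It read 9.37, 9.12, 9.40 and 9.65 in untreated cells, 8.92, 8.91, 9.07, 9.24 and 9.15 after 8 h, and 8.27, 8.59, 8.13, 8.45 and 8.34 at 24 h. At 8 h the groups overlapped, and the change of -0.33 only just passed (SE 0.11, adjusted p = 0.047), whereas the step between 8 and 24 h was -0.70 (SE 0.10, adjusted p = 7.3e-05). The 8 h call was lost without untreated replicate 4 (adjusted p = 0.16), 3 (0.089) or 1 (0.087), without 8 h replicate 1, 2, 3 or 5 and without 24 h replicate 1, 4 or 5, where the adjusted p lay between 0.056 and 0.098. At 24 h against untreated the change was -1.03 (SE 0.11, adjusted p = 9.6e-07).

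VARS1, the valyl enzyme, read 7.72, 7.69, 7.55 and 7.65 in untreated cells, 7.23, 7.30, 7.12, 7.16 and 7.15 after 8 h, and 6.79, 6.73, 6.51, 6.60 and 6.67 at 24 h. The 3 times did not overlap, with a change of -0.46 (adjusted p = 8.9e-05) at 8 h and of -0.99 (adjusted p = 3.6e-09) at 24 h. Its 2 probe sets did not move alike, however, since 1 changed by -1.69 (SE 0.11) and the other by -0.30 (SE 0.16, adjusted p = 0.17) at 24 h. In the same order they changed by -0.61 and -0.32 (adjusted p = 0.23) at 8 h. From 8 h to 24 h they changed by -1.08 and 0.02 (adjusted p = 0.96). EPRS1, the fused glutamyl and prolyl enzyme of the complex, had 9.98, 10.07, 9.35 and 9.42 in untreated cells, 9.31, 9.16, 8.86, 9.02 and 9.09 after 8 h, and 9.01, 9.01, 8.72, 8.55 and 8.71 at 24 h. All treated arrays lay below all untreated arrays, by -0.61 (adjusted p = 0.0071) at 8 h and -0.90 (adjusted p = 1e-04) at 24 h. The step to 24 h of -0.29 was not called (adjusted p = 0.15), but was with a blocking term for run (adjusted p = 0.012). That value averages 3 probe sets, which differed in precision. Without a block their steps by limma were -0.36 (adjusted p = 0.0058), -0.32 (adjusted p = 0.0087) and -0.19 (SE 0.41, adjusted p = 0.82). Within days 2 to 4 the 8 h change of EPRS1 was -0.39.

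AARS1, the alanyl enzyme, had 10.81, 10.79, 10.48 and 10.61 in untreated cells, 10.19, 10.15, 10.11, 10.40 and 10.15 after 8 h, and 9.70, 9.79, 9.98, 9.87 and 9.73 at 24 h. The times did not overlap, and the change was -0.47 (SE 0.08, adjusted p = 0.00062) at 8 h and -0.86 (SE 0.08, adjusted p = 3.6e-07) at 24 h. The cysteinyl enzyme CARS1 behaved otherwise, with 10.34, 10.40, 9.65 and 9.81 in untreated cells, 8.85, 8.82, 9.09, 9.45 and 9.32 after 8 h, and 9.21, 9.27, 9.38, 9.32 and 9.29 at 24 h. All treated values were lower than all untreated ones, and the 24 h arrays lay inside the range of the 8 h arrays. Its change was -0.95 (SE 0.15, adjusted p = 0.00031) at 8 h and -0.76 (SE 0.15, adjusted p = 0.00077) at 24 h. Within day 1 it was -1.54 at 8 h and -1.13 at 24 h, and within days 2 to 4 it was -0.44 at 8 h and -0.40 at 24 h. The step of 0.19 (95% confidence interval -0.12 to 0.50) did not pass over all 5 runs, but CARS1 was called higher at 24 h than at 8 h within the 2 runs of the first day alone.

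Of the 6 remaining cytosolic enzymes, TARS1, NARS1, SARS1 and FARSA were lower at both times, with changes between -0.64 and -0.39 at 8 h and between -0.71 and -0.64 at 24 h. For FARSA the 8 h change was -0.13 within day 1, where the call was lost (adjusted p = 0.24), and -0.59 within days 2 to 4. SARS1 changed by -0.96 at 8 h and -0.97 at 24 h within day 1, and by -0.34 and -0.32 within days 2 to 4. HARS1, the histidyl enzyme, was lower at 24 h only (-0.46, SE 0.09, adjusted p = 0.00065). At 8 h it differed by -0.13 (adjusted p = 0.40), a difference that passed with a blocking term for run (adjusted p = 0.037). RARS1, the arginyl enzyme of the complex, was the cytosolic member not called at either time. It ranged from 9.45 to 9.75 in untreated cells, from 9.53 to 9.79 at 8 h and from 9.40 to 9.58 at 24 h, and its change at 24 h was -0.11 with a 95% confidence interval of -0.27 to 0.05.

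With time, the cytosolic enzymes thus split into 7 that were lower at 8 h and lower again at 24 h than at 8 h (AARS1, FARSA, IARS1, LARS1, VARS1, WARS1 and YARS1) and 5 that were lower at both times with no further step called (CARS1, EPRS1, NARS1, SARS1 and TARS1). HARS1 and RARS1 make up the rest. For EPRS1 and VARS1 the call of a further step differed between their probe sets, as given above. By limma on single probe sets it also differed for FARSA (adjusted p = 0.024 and 0.25) and WARS1 (0.025 and 0.054). The same held for the shared enzyme KARS1 (0.017 and 0.066). For NARS1, SARS1 and TARS1 the step was -0.04 (-0.22 to 0.13), 0.01 (-0.21 to 0.23) and -0.10 (-0.25 to 0.04), with 95% confidence intervals in parentheses. In the step from 8 h to 24 h, 8 of 14 cytosolic enzymes were called lower, against 13.7% of all genes. The call of a further step was less firm for FARSA (adjusted p = 0.042), for WARS1 (adjusted p = 0.032) and for KARS1 (adjusted p = 0.024). These calls were lost with several single arrays left out, at an adjusted p of up to 0.12 for FARSA (without 8 h replicate 2), 0.083 for WARS1 (without 8 h replicate 4) and 0.070 for KARS1 (without 8 h replicate 5).

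The mitochondrial enzymes differed among themselves. NARS2, the asparaginyl enzyme, was the only one of the 9 called lower at 8 h, with 10.44, 10.44, 10.67 and 10.78 in untreated cells, 9.87, 9.74, 10.03, 10.26 and 10.27 after 8 h, and 9.61, 9.70, 9.84, 9.99 and 9.86 at 24 h. All treated arrays lay below all untreated ones. The change was -0.55 (SE 0.12, adjusted p = 0.0027) at 8 h and -0.78 (SE 0.12, adjusted p = 3.7e-05) at 24 h, and the step of -0.23 between them passed only with a blocking term for run (adjusted p = 0.0038, against 0.14 without).

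WARS2, SARS2, LARS2 and FARS2 were not called at 8 h and were lower at 24 h. At 8 h the differences were -0.15 for WARS2 (95% confidence interval -0.37 to 0.06), -0.17 for SARS2 (-0.36 to 0.03) and -0.18 for FARS2 (-0.34 to -0.02, adjusted p = 0.11). FARS2 was lower in 4 of 4 runs at 8 h and was called in 6 of 29 other settings, among them the filters on variance and on dim probe sets and the brightest probe set alone, with changes down to -0.31. WARS2 was called at 8 h only within day 1 (-0.41). LARS2, the leucyl enzyme, had 8.46, 8.42, 8.82 and 8.90 in untreated cells, 8.58, 8.51, 8.69, 8.60 and 8.72 after 8 h, and 8.13, 8.06, 8.28, 8.11 and 8.28 at 24 h. The 8 h values lay inside the untreated range and the 24 h values below both, with a difference of -0.03 at 8 h (95% confidence interval -0.24 to 0.17) and of -0.48 at 24 h (SE 0.10, adjusted p = 0.00063). SARS2, the seryl enzyme, had 7.13, 7.03, 6.73 and 6.98 in untreated cells, 6.75, 7.00, 6.78, 6.79 and 6.70 after 8 h, and 6.32, 6.58, 6.21, 6.53 and 6.35 at 24 h. Only the 24 h arrays were apart, by -0.57 from untreated cells (SE 0.09, adjusted p = 8.7e-05).

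WARS2, the tryptophanyl enzyme, had 7.67, 7.83, 7.55 and 7.54 in untreated cells, 7.37, 7.31, 7.43, 7.62 and 7.73 after 8 h, and 6.95, 7.15, 6.99, 6.91 and 7.28 at 24 h. The 24 h arrays were below all others, by -0.59 against untreated cells (SE 0.10, adjusted p = 0.00014). FARS2, the phenylalanyl enzyme, had 6.78, 6.99, 6.58 and 6.70 in untreated cells, 6.64, 6.61, 6.45, 6.58 and 6.64 after 8 h, and 6.24, 6.24, 6.28, 6.22 and 6.32 at 24 h, a change of -0.50 (SE 0.07, adjusted p = 3.1e-05) with no overlap. That value averages 3 probe sets, of which 2 changed by -0.60 and -0.83. The third was dim, at the 15.7th percentile of all probe sets, and changed by -0.08.

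HARS2, the mitochondrial histidyl enzyme, was the only member called higher. It had 9.33, 9.41, 9.40 and 9.53 in untreated cells, 9.61, 9.57, 9.72, 9.55 and 9.68 after 8 h, and 9.64, 9.67, 9.70, 9.61 and 9.68 at 24 h. Every treated array was above every untreated one, though by small amounts. The change was 0.21 (SE 0.06, adjusted p = 0.014) at 8 h and 0.25 (SE 0.06, adjusted p = 0.0020) at 24 h. HARS2 was higher in 4 of 4 runs at both times, but the 8 h call was lost within day 1 (adjusted p = 0.059), within days 2 to 4 (adjusted p = 0.11) and without untreated replicate 1 (adjusted p = 0.056), and the 24 h call within days 2 to 4 (adjusted p = 0.054). YARS2, IARS2 and RARS2 were not called in any comparison. IARS2 changed by -0.08 at 24 h (95% confidence interval -0.20 to 0.04) and YARS2 by -0.15 (-0.32 to 0.02). Both probe sets of RARS2 lay at the 1.35th and 1.86th percentile of all probe sets, near the lower end of the arrays' values, where a change could hardly be seen.

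AIMP1, a scaffold protein of the complex and the precursor of a secreted cytokine, had 9.90, 9.93, 9.67 and 9.70 in untreated cells, 9.66, 9.71, 9.46, 9.45 and 9.52 after 8 h, and 9.67, 9.67, 9.49, 9.37 and 9.40 at 24 h. The groups overlapped, although AIMP1 was lower in 4 of 4 runs at both times. The change was -0.24 at 8 h (adjusted p = 0.067, and 0.0045 with a blocking term for run) and -0.28 at 24 h (SE 0.09, adjusted p = 0.017). At 24 h its 2 probe sets changed by -0.44 and by -0.12, and the call was lost with the brighter of them alone (adjusted p = 0.47) and without untreated replicate 1 (adjusted p = 0.058) or 2 (adjusted p = 0.063).

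The amino acids for which both a cytosolic and a mitochondrial enzyme were measured give 9 pairs. In the arginine pair RARS1 was not called, and a change of RARS2 could hardly be seen near the lower end of the arrays' values. The cytosolic minus the mitochondrial fold change of that pair was -0.12 at 24 h against untreated. In 7 of the other 8 pairs the cytosolic fold change was the lower one at 24 h against untreated. Both enzymes were called lower in 5 pairs, only the cytosolic one in 2 pairs (IARS1 with IARS2, YARS1 with YARS2), and neither enzyme for arginine. For histidine the calls were opposite, HARS1 lower and HARS2 higher. The difference between the 2 enzymes of a pair on the same array did not overlap between 24 h and untreated arrays for isoleucine, tyrosine, tryptophan, histidine and leucine. For asparagine, phenylalanine, serine and arginine it did. The share without overlap among other pairs of genes was not counted. At 8 h both enzymes were called lower only for asparagine, and in 6 pairs the cytosolic one alone. Of all single genes, 11.0% were called lower at 8 h and 20.9% at 24 h.

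**Figure D3:**
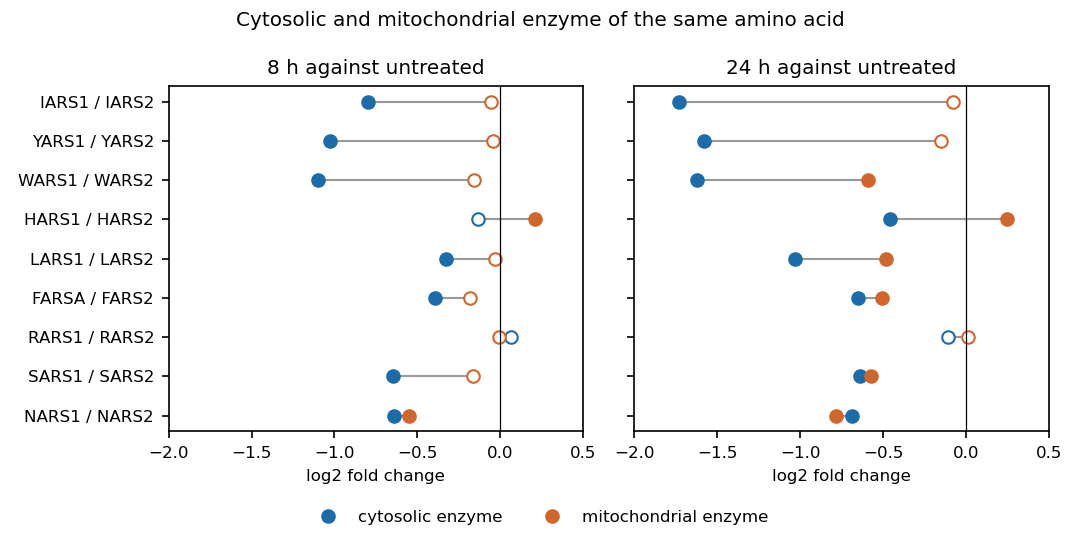
Log2 fold change against untreated cells of the cytosolic (blue) and the mitochondrial (orange) enzyme for the same amino acid, at 8 h (left) and 24 h (right), ordered by the gap at 24 h. Filled circles passed the adjusted p of 0.05. At 24 h the gap is widest for IARS1 (-1.73) and IARS2 (-0.08), and NARS2 (-0.78) lies below NARS1 (-0.69).

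HARS1 and HARS2 are neighbours that are transcribed away from each other from start sites with only 84 bases between them, at chr5:140691371-140691454 (GRCh38.p14, plus strand). The stretch is shown because the 2 genes that share it were called in opposite directions at 24 h, and its GC content is 59.5%.
HARS1-HARS2 interval: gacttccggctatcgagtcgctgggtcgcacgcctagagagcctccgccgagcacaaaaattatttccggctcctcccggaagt
On this strand HARS1 lies to the left, on the minus strand, and HARS2 to the right. Neither the CARE motif nor the E-box or cyclic AMP response element was found in the window of either gene.

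The 6 measured members with a CARE match other than YARS2, that is AARS1, CARS1, IARS1, NARS1, TARS1 and GARS1, were all called lower at 8 h and at 24 h. Their 24 h changes ran from -1.73 (IARS1) to -0.69 (NARS1), whereas YARS2 changed by -0.15. Of the 16 measured members with a window but no match, 5 were called lower and 1 higher after 8 h, and 12 lower and 1 higher at 24 h. Among all genes, 11.0% were called lower at 8 h and 20.9% at 24 h. The median of the 7 members with a match was -0.64 at 8 h and -0.76 at 24 h, and that of the 16 without was -0.17 and -0.49. Among cytosolic enzymes alone, 5 of 5 with a match and 4 of 6 without were lower at 8 h, with medians of -0.64 and -0.50. At 24 h the counts were 5 of 5 with a match and 5 of 6 without, with medians of -0.76 and -0.64, and the median step from 8 h to 24 h was -0.10 with a match and -0.27 without. The 3 cytosolic enzymes with no window had a median of -1.03 at 24 h. WARS1, with a change of -1.62 at 24 h, is 1 of those without a match. From 8 h to 24 h, the members with a match had a median step of -0.11, with 2 of 7 lower, and those without had -0.25, with 8 of 16 lower. In that step 13.7% of all genes were called lower.

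The members were also grouped by complex and by structural class, where 11.0% of all genes were called lower at 8 h and 20.9% at 24 h. Of the 6 measured members of the multisynthetase complex (EPRS1, IARS1, KARS1, LARS1, RARS1 and AIMP1), 3 were lower at 8 h and 5 at 24 h, with a median change of -0.66 at 24 h. Of the 10 cytosolic enzymes outside it, 9 were lower at 8 h and 10 at 24 h, with a median of -0.73. Synthetases fall into 2 unrelated structural classes, and at 24 h the 7 cytosolic enzymes of class I had a median of -1.03 (6 lower) and the 6 of class II one of -0.67 (6 lower). EPRS1 holds an enzyme of each class and was not counted in either.

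Untreated cells, 8 h and 24 h were each present in runs 1 to 4, and 13 of 14 cytosolic enzymes were lower in all 4 runs at 24 h against untreated, and 13 of 14 at 8 h. The share of all genes lower in all 4 runs was not counted. The runs hold the same arrays as the fit, so these counts add no further samples. The median change of the cytosolic enzymes within a run lay between -0.98 and -0.60 at 24 h and between -0.80 and -0.49 at 8 h. For mitochondrial enzymes it lay between -0.36 and -0.26 at 24 h and between -0.14 and 0.02 at 8 h. The mitochondrial median of -0.48 from the fit is therefore outside the range of the single runs. It is the fold change of LARS2, the fifth of 9 ordered values, and the next one, YARS2, is at -0.15. The untreated arrays of day 1 (runs 1 and 2) were higher than the other 2 by 0.93 for WARS1, 0.65 for GARS1, 0.64 for CARS1, 0.64 for EPRS1 and 0.56 for SARS1, and for LARS2 the difference was -0.42. The part of this day difference in the fold changes was not tested beyond the fits within days. Within day 1 the cytosolic median at 8 h was -0.77, and within days 2 to 4 it was -0.44.

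Other genes that make, modify and deliver tRNAs were read from lists, which were chosen with earlier results of these data known. Beside their counts, 11.0% of all genes were called lower at 8 h and 20.9% at 24 h. Of 17 measured genes of cytosolic tRNA processing, modification, export and delivery (25 listed), 5 were lower at 8 h and 11 at 24 h, and 0 were higher by limma (1 at 8 h and 0 at 24 h at an unadjusted p below 0.05). Their median was -0.20 at 8 h and -0.39 at 24 h. PUS7, a pseudouridine synthase, changed by -2.46 at 24 h (SE 0.16, adjusted p = 3.1e-09), XPOT, the export receptor of tRNA, by -1.27 (adjusted p = 6.5e-09), POP7 by -1.33 and RPP40 by -1.08, both subunits of RNase P. EEF1A1, the factor that carries charged tRNAs to the ribosome, changed by 0.02 (adjusted p = 0.77). Of the other 7 human synthetases listed, only CARS2, the mitochondrial cysteinyl enzyme, was measured, with a change of 0.12 at 24 h (adjusted p = 0.44).

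Of 13 measured genes of mitochondrial translation (17 listed), 4 were lower at 8 h and 8 at 24 h, against 11.0% and 20.9% of all genes. By limma 0 were higher, also at an unadjusted p below 0.05, and the medians were -0.13 at 8 h and -0.33 at 24 h. The largest changes at 24 h among the 4 genes of lowest adjusted p were those of GTPBP3 (-1.10), a tRNA-modifying enzyme, and TSFM (-1.03), the exchange factor of TUFM. TUFM, which brings charged tRNAs to the mitochondrial ribosome, changed by -0.52 and MTO1, the partner of GTPBP3, by -0.51.

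The list of 20 ATF4-regulated genes holds genes of amino acid supply, ATF4 itself and others, among them the regulators ATF3, DDIT3, CEBPB and TRIB3. Of these, 19 were measured, of which 16 were lower at 8 h and 17 at 24 h, against 11.0% and 20.9% of all genes. By limma 0 were higher, also at an unadjusted p below 0.05. The medians were -0.80 at 8 h and -1.08 at 24 h, and the step between the times had a median of -0.11, with 6 lower and 1 higher. ATF4 itself changed by -0.57 (SE 0.10, adjusted p = 0.00040) at 8 h and by -0.50 (adjusted p = 0.00048) at 24 h. PHGDH, which opens the serine synthesis pathway, changed by -2.15 at 24 h, MTHFD2, of mitochondrial folate metabolism, by -1.88, PSPH, the last enzyme of serine synthesis, by -1.54, and SLC7A1, an importer of cationic amino acids, by -1.05. ASNS, the asparagine synthetase (not a tRNA synthetase), and SLC7A11, the cystine importer, did not pass at 24 h, at -0.05 (adjusted p = 0.88) and 0.17 (adjusted p = 0.64). MYC, a transcription factor that also drives genes of protein synthesis, changed by -1.11 (adjusted p = 2.1e-07) at 8 h and by -0.96 (adjusted p = 2.4e-07) at 24 h.

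**Figure D4:**
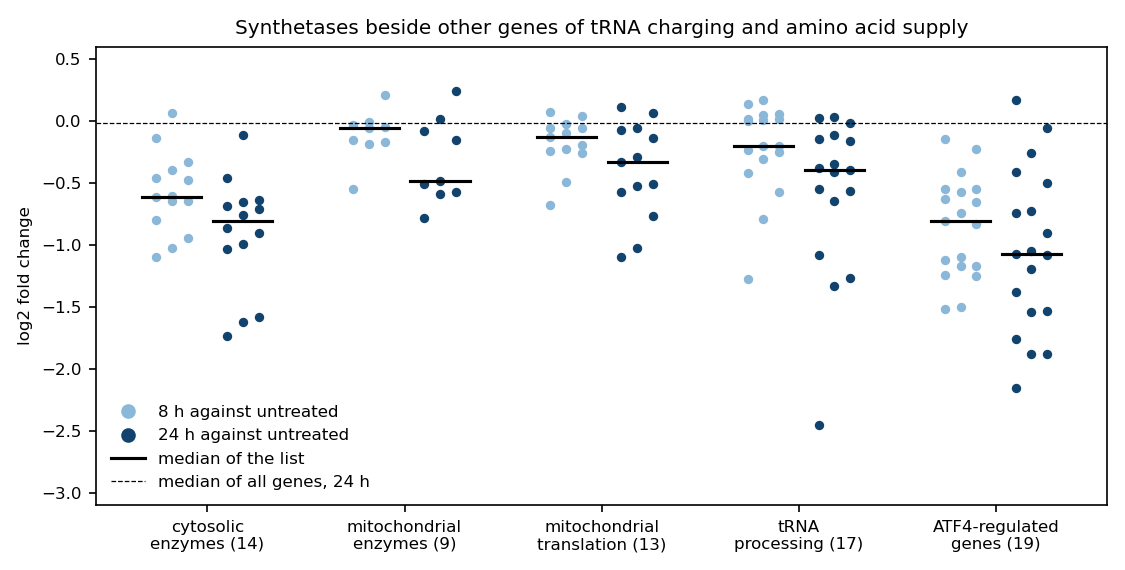
Log2 fold change against untreated cells at 8 h (light) and 24 h (dark) of each measured gene of 5 lists, with the number of genes in parentheses, the median of each list as a bar, and the median of all genes at 24 h as a dashed line. The medians at 24 h are -0.81 for cytosolic enzymes, -0.48 for mitochondrial enzymes, -0.33 for mitochondrial translation, -0.39 for tRNA processing and -1.08 for ATF4-regulated genes.

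After normalisation the median log2 value lay between 6.03 and 6.11 on the 14 arrays, and 2 arrays of a group differed on average by 0.118 to 0.226 per probe set. Of 7 measured B-lineage markers, 6 (CD79A, CD79B, PAX5, VPREB1, CD22 and CD24) were above the array median on all 14 arrays and DNTT on 1. At 24 h against untreated, 4 of the 7 were higher, namely CD79B (0.98), CD79A (0.56), CD24 (0.41) and VPREB1 (0.15), and 2 were lower, DNTT (-1.80) and CD22 (-0.36), and at 8 h only those 2 were called, both lower. Of the markers of other cell types, NKG7, a T and NK cell gene, was above it on all 14 arrays (8.28 to 8.94), and the other 5 of that list, the 6 of monocytes and granulocytes and the 4 of erythroid cells and platelets were above it on none. Of these lists, LYZ (0.44) and CSF1R (-0.33), both myeloid genes, were called at 24 h against untreated. The part of these marker changes in the members' changes was not tested.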

How the data were processed

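RNA of 14 RS4;11 samples was hybridised to Affymetrix arrays. The authors background-corrected, normalised and summarised the arrays by RMA of the affy package (version not stated), excluded 1 untreated replicate after quality control, and deposited the log2 values of 22277 probe sets, which carry no counts, so the number and spread of arrays limit the precision. Here 19070 probe sets with 1 annotated gene were averaged per gene (11963 genes). A further 1043 had several genes and 2164 none named. Group means over all 14 arrays were compared with limma 3.58.1 in R 4.3.3, with Benjamini-Hochberg adjustment over all genes and a call at an adjusted p below 0.05. The variance filter of the methods (quantile 0.5) was kept as an alternative, because it drops genes that change little.

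The members and lists were chosen with earlier results of these data known. Values on every array are given for called members whose groups do not overlap, for up to 8 cytosolic and 6 mitochondrial enzymes by the size of the 24 h change, for scaffold proteins and for the 2 shared enzymes. From the other lists, up to 4 genes of lowest adjusted p are named. ATF4, ASNS, SLC7A11 and EEF1A1 were named besides, after their values were seen. Groups and runs came from the labels. Deviations from the group means correlated between arrays of the same run in all 13 pairs (r from 0.30 to 0.54), and as much between the 2 runs of day 1 (0.30 to 0.47), against -0.47 to 0.37 between days. The run was taken to pair the samples in the counts by run and in the fits with a block. The main fit holds no term for run or day, so its p-values ignore this pairing. The correlations do not separate the run from the day, and the numbering in the sample titles does not match the run for replicate 4 of the untreated cells. The fit was tested on simulated data with noise drawn independently for each array, so that test does not cover effects of run or day. Alternatives were other filters, probe set rules, scalings, weights, blocks, days and left-out arrays.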

Additional observations from a re-analysis of the deposited data

Results flagged for a closer look

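In 2 of 78 groups of 4 or 5 arrays, 1 array stood apart from the others by more than Dixon's 95% critical value, where chance flags about 1 in 20. AARS1 had 10.40 in replicate 4 at 8 h, with the nearest array of that group at 10.19 and the lowest at 10.11. SARS1 had 10.27 in the same replicate, with the nearest array at 10.14 and the lowest at 10.10. This replicate belongs to run 5, which has no untreated array.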

How the results depend on the processing

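No fold change of a called member changed sign under any alternative. With the run as a replicate block, 17 members were lower at 8 h, 21 at 24 h and 16 between 8 and 24 h, and no call made without the block was lost. Calls rose among all genes too, with 15.2%, 24.0% and 17.4% lower in the same order, against 11.0%, 20.9% and 13.7% without the block. With 1 array left out, members lower numbered 13 to 15 at 8 h, 20 to 22 at 24 h and 11 to 13 between the times, and members higher 0 to 1 at 8 h (0 without untreated replicate 1), 1 at 24 h and 0 between the times. Cytosolic medians then ranged from -0.69 to -0.52, from -0.90 to -0.73 and from -0.33 to -0.29, and mitochondrial medians from -0.11 to -0.05, from -0.51 to -0.40 and from -0.31 to -0.17.

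The single member higher at 8 h (HARS2) became 0 under the variance filter, within day 1, within days 2 to 4 and at adjusted p below 0.01, and the one at 24 h became 0 under the variance filter and within days 2 to 4. The variance filter removes HARS2, IARS2, RARS1, RARS2 and YARS2, and gave mitochondrial medians of -0.17 at 8 h, -0.59 at 24 h and -0.43 between the times. Within day 1, 1 member was higher at 24 h than at 8 h (CARS1), and the cytosolic median at 8 h was -0.77, against -0.44 within days 2 to 4. Using only probe sets named _at or _a_at leaves out EPRS1, GARS1, IARS1, LARS1, VARS1, WARS2 and YARS1, so that members lower were 9 at 8 h and 8 between the times, with a cytosolic median of -0.17 between the times. The mitochondrial median at 24 h was -0.30 with those probe sets, -0.53 without dim probe sets, -0.44 with the brightest probe set, -0.53 with equal array medians, -0.42 with array weights, -0.35 within day 1 and -0.37 within days 2 to 4. The causes were not tested beyond the loss of genes named here.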
